A study of Macaca mulatta with 6 samples.

Results

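Catecholamine synthesis and vesicle loading was followed through 8 genes, GCH1, TH, DDC, DBH, PNMT, CYB561, SLC18A1 and SLC18A2, in the left adrenal gland of rhesus macaques. Every probe set that the platform annotation assigned to one of them was taken, which gave 8 of the 11963 genes with a probe set of their own and 13 of the 22215 probe sets that are not controls, and each of the 13 named 1 gene. CYB561 had 5 probe sets, DDC had 2 and each other gene had 1. The series asked how adrenal gene expression varies over the day, with 6 ovariectomized females killed 1 each at 3 AM, 7 AM, 11 AM, 3 PM, 7 PM and 11 PM. Per the labels, all had been kept singly caged for months on 12 h of light and 12 h of dark and had been without food for 12 h. The labels give no clock hour for the start of the light phase. No clock time had a second animal, so no value carries a replicate error of its own. Age was uneven over the times: the 3 AM and 7 AM animals were both 12 years of age, the 11 AM animal was 10, the animals of 3 PM and 11 PM were 8 and the 7 PM animal was 7.

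Chromaffin cells of the adrenal medulla make adrenaline and noradrenaline from tyrosine and store them in dense-core vesicles. TH hydroxylates tyrosine, using tetrahydrobiopterin whose synthesis starts with GCH1, and DDC turns the product into dopamine. Dopamine is carried into vesicles by the amine transporters SLC18A1 and SLC18A2, DBH converts it there to noradrenaline with ascorbate that CYB561 helps to regenerate, and PNMT methylates noradrenaline to adrenaline in the cytosol. The chain is kept active by nerve input through acetylcholine and, for PNMT, by glucocorticoids arriving from the surrounding cortex.

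Values are the deposited linear intensities. The probes were designed on human sequence, so levels were compared within a probe set and never between genes. Both parts of the gland were present on all arrays. The cortical steroid hydroxylase gene CYP17A1 ran from 28647 to 40394 and the granin gene CHGA, a marker of chromaffin vesicles, from 2334 to 3756. The spiked-in hybridisation control probe sets read lower on the 3 AM array (geometric mean 414) and the 3 PM array (538) than on the remaining 4, which lay between 789.7 and 900.5. Values without the 3 AM and 3 PM arrays are given beside the results of GCH1, TH, PNMT, DBH, SLC18A1 and CYB561. The ratio of 3' to 5' signal of GAPDH, a sign of RNA quality, was 0.988 at 3 AM, 0.721 at 7 AM, 0.885 at 11 AM, 1.16 at 3 PM, 1.15 at 7 PM and 0.880 at 11 PM, and that of ACTB lay between 0.610 and 0.819. In whole-gland RNA, fewer chromaffin cells and less RNA per chromaffin cell cannot be told apart.

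The genes did not share one time course. TH and PNMT were highest at 7 AM and lowest at 3 AM, DBH had high values at 7 AM and 3 PM, and GCH1 climbed through the day to 3 PM. Of the 13 probe sets, 5 had their lowest array at 3 AM, where 16.2% of all probe sets had theirs, and 6 had their highest array at 7 AM, against 14.6% of all probe sets.

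**Figure D1:**
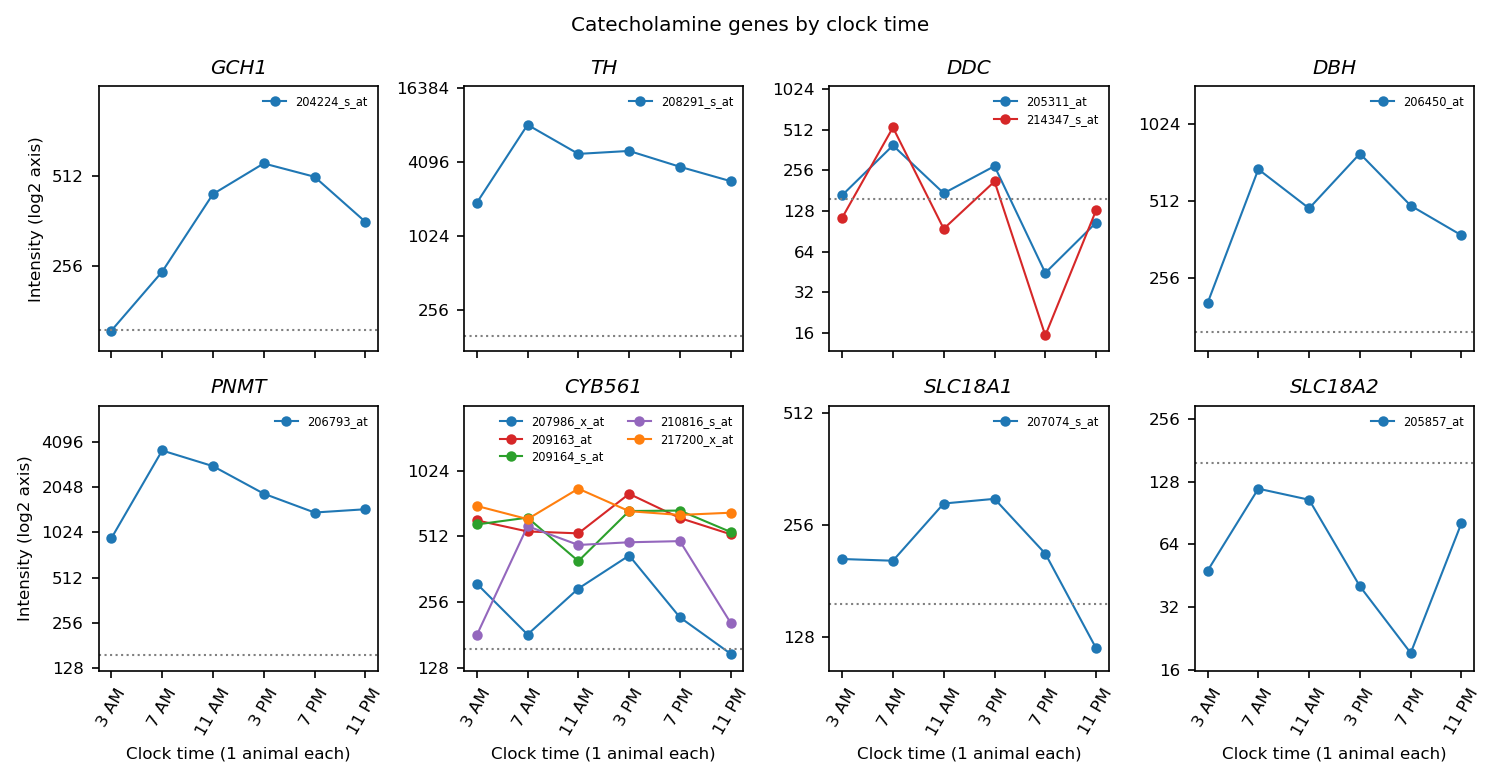
Intensity on a log2 axis at each of the 6 clock times, 1 animal each, for the 13 probe sets of the 8 genes; each line is 1 probe set and the dotted line is the level filter at an intensity of 156.8. GCH1 has its top at 3 PM, TH and PNMT theirs at 7 AM, and the 5 probe sets of CYB561 follow different courses.

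GCH1, which encodes GTP cyclohydrolase 1, the first enzyme of tetrahydrobiopterin synthesis, had intensities of 156 at 3 AM, 245 at 7 AM, 444 at 11 AM, 562 at 3 PM, 508 at 7 PM and 359 at 11 PM. The values went up over 4 successive times and then down, and the 3 highest were those of 11 AM, 3 PM and 7 PM. A 24-h cosine had its peak at 15.95 h with a fitted peak 3.33 times the trough (log2 1.74 ± 0.32, SE of the fit). By limma's moderated F test the unadjusted p was 0.00264, rank 29 of 11108 probe sets tested, and the adjusted p was 0.866. In the exact test of R2 over the 60 circular orders of the arrays, GCH1 gave the smallest p the test allows (R2 0.909, exact p = 0.0167). It was the single member of 13 under 0.05 in that test, which 3.52% of all 22215 probe sets passed.

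When age was added to the fit, the GCH1 cosine was log2 1.31 ± 0.78 and its peak moved to 9.43 h (limma, unadjusted p = 0.0228). Age itself ran with clock time, from 12 years at 3 AM and 7 AM to 7 at 7 PM. A 24-h cosine and age can therefore not be told apart here. In the same fit the PNMT cosine was log2 4.73 ± 1.58 and that of TH 3.07 ± 2.11. Leaving out single arrays gave a GCH1 cosine of 1.34 to 1.93 on the log2 scale, with peaks between 15.2 h and 16.3 h. Without the 3 AM and 3 PM arrays it was 1.42 and missed the unadjusted threshold of 0.05 (limma, unadjusted p = 0.0633).

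TH, the rate-limiting enzyme of the pathway, had intensities of 1903 at 3 AM, 8245 at 7 AM, 4775 at 11 AM, 5047 at 3 PM, 3749 at 7 PM and 2859.6 at 11 PM. The lowest and the highest array, 4.33 times apart, came from the 2 animals aged 12 years. Taking 7 AM, 11 AM and 3 PM as day and 7 PM, 11 PM and 3 AM as night, all 3 day arrays lay above all 3 night arrays. Of the probe sets past the level filter 5.54% did so, and of all probe sets likewise 5.54%. TH averaged a log2 value of 12.51 ± 0.43 by day and 11.42 ± 0.49 by night (SD, n = 3 each).

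The TH difference was log2 1.09 ± 0.31 (SE), 2.14-fold higher by day, with an unadjusted p of 0.00674 and an adjusted p of 0.841 by limma. An exact permutation test of 3 arrays against 3 gave p = 0.1, two-sided, the smallest that this design allows. Leaving out each array in turn left the difference between 0.83 and 1.32, past the unadjusted threshold each time, and with age as a covariate it was 1.15 ± 0.33. Without the 3 AM and 3 PM arrays it was 0.94 (limma, unadjusted p = 0.0303). The 24-h cosine, with a peak at 11.4 h and log2 1.35 ± 0.54, described TH less closely (R2 0.514, limma, unadjusted p = 0.103).

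PNMT, the last enzyme, which makes adrenaline, had intensities of 936 at 3 AM, 3597 at 7 AM, 2830.1 at 11 AM, 1855 at 3 PM, 1389 at 7 PM and 1460.4 at 11 PM. Here too each day array exceeded each night array. The difference was log2 1.104 ± 0.29 (SE), 2.15-fold higher by day, with an unadjusted p of 0.00454, rank 53 of 11108, and an adjusted p of 0.841 by limma. It stayed past the unadjusted threshold without any single array, between 0.89 and 1.36 on the log2 scale, and was 1.16 without the 3 AM and 3 PM arrays. The fitted 24-h peak was at 10.4 h (log2 1.44 ± 0.49, limma, unadjusted p = 0.0560). It passed the unadjusted threshold in several alternatives, among them the fit without the 3 AM array, where the peak was at 7.87 h (limma, unadjusted p = 0.00477).

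TH and PNMT shared their highest and lowest arrays, but their ratio was not constant. From 11 AM to 3 PM PNMT went from 2830 down to 1855 while TH went from 4775 up to 5047. The log2 ratio of PNMT to TH departed from its own mean by 0.38 at most, at 11 AM, and by -0.31 at least, at 3 PM, and its day mean exceeded its night mean by 0.01. GCH1 did not keep pace with TH at 7 AM: the log2 ratio of GCH1 to TH was -1.55 from its mean there and 0.64 above it at 7 PM. These departures are values of single animals with no error of their own.

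DDC, which makes dopamine, was measured by a pair of probe sets that lay below the level filter, 205311_at with a mean log2 value of 7.301 against a filter at 7.302 and 214347_s_at with 6.88. The first had intensities of 168 at 3 AM, 392 at 7 AM, 173 at 11 AM, 275 at 3 PM, 44.5 at 7 PM and 105 at 11 PM. The second had 114, 533, 94.5, 212, 15.3 and 129.7 at the same times. Both were highest at 7 AM and lowest at 7 PM, and their log2 values had a Pearson r of 0.944 over the 6 arrays, as measurements of the same 6 RNA samples. On 205311_at all day arrays lay above all night arrays, with a difference of log2 1.51 ± 0.54 in the fit without a level filter (limma, unadjusted p = 0.0283, adjusted p = 0.963). On 214347_s_at the groups overlapped and the difference was 1.82 ± 0.96 (limma, unadjusted p = 0.102). Without the 7 PM array these became 0.996 and 0.85. The call on 205311_at was lost when the 7 AM, 3 PM, 7 PM or 11 PM array was left out (limma, unadjusted p = 0.0905, 0.0680, 0.0658 and 0.0510).

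DBH, the vesicular enzyme that makes noradrenaline, had intensities of 203 at 3 AM, 682 at 7 AM, 479 at 11 AM, 786 at 3 PM, 491 at 7 PM and 376 at 11 PM. Day and night overlapped, since 11 AM lay below 7 PM. The difference was log2 0.92 ± 0.34 (SE), 1.90-fold higher by day (limma, unadjusted p = 0.0245, adjusted p = 0.841). It was no longer past the unadjusted threshold without the 3 AM, 7 AM or 3 PM array (limma, unadjusted p = 0.0795, 0.0635 and 0.0823). The difference was 0.56 without 3 AM and 0.41 without 3 AM and 3 PM (limma, unadjusted p = 0.199). Its 24-h cosine had a peak at 13.6 h and was 1.34 ± 0.50 on the log2 scale (limma, unadjusted p = 0.0786).

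Of the vesicular amine transporters, SLC18A1, or VMAT1, had intensities of 208 at 3 AM, 205.5 at 7 AM, 293 at 11 AM, 302 at 3 PM, 215 at 7 PM and 119.5 at 11 PM, with the 2 highest values at 11 AM and 3 PM and no 7 AM maximum. Its 24-h cosine had a peak at 12.3 h, 2.10 times the trough (log2 1.07 ± 0.34, limma, unadjusted p = 0.0414, adjusted p = 0.866). The call was lost when the 11 AM, 3 PM, 7 PM or 11 PM array was left out, with log2 0.67 without 11 PM (limma, unadjusted p = 0.250). With both 3 AM and 3 PM left out it was 1.52 (limma, unadjusted p = 0.0345). Between day and night the SLC18A1 difference was 0.59 ± 0.28 (limma, unadjusted p = 0.0669).

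SLC18A2, or VMAT2, lay below the level filter on every array, with intensities of 47.8 at 3 AM, 118 at 7 AM, 105 at 11 AM, 40.3 at 3 PM, 19.3 at 7 PM and 81.1 at 11 PM. It was lowest at 7 PM and 3 PM, where the GAPDH ratio was highest, and highest at 7 AM, where that ratio was lowest. TH, PNMT, the DDC probe sets and CYB561 210816_s_at were likewise highest at 7 AM. The part of RNA quality in any of these values was not tested. The SLC18A2 day and night arrays overlapped, at 0.89 ± 0.62 in the fit without a level filter (limma, unadjusted p = 0.198).

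CYB561, the vesicle-membrane cytochrome that passes electrons to ascorbate, gave no single answer over its 5 probe sets. Of their 10 pairs 7 had a Pearson r above 0 over the 6 arrays, and r ran from -0.88 to 0.74. Probe set 210816_s_at had intensities of 180.5 at 3 AM, 570.4 at 7 AM, 468 at 11 AM, 481 at 3 PM, 487 at 7 PM and 205 at 11 PM, with 3 AM and 11 PM far below the rest. On it the day-night difference was log2 0.94 ± 0.35 (limma, unadjusted p = 0.0273) and the 24-h cosine 1.499 ± 0.47 (limma, unadjusted p = 0.0405). Leaving out the 3 AM, 7 AM, 3 PM or 11 PM array lost the day-night call, at 0.67 for 3 AM and 0.76 for 11 PM. The cosine call was lost with 3 AM, 3 PM or 11 PM left out (limma, unadjusted p = 0.159, 0.0568 and 0.146). It was lost also with arrays centred on their medians (limma, unadjusted p = 0.0662) or with age in the fit (limma, unadjusted p = 0.0633). Without both 3 AM and 3 PM neither call held, at 0.71 between day and night and 1.26 in the cosine (limma, unadjusted p = 0.148 and 0.214). Probe set 207986_x_at was instead lowest at 11 PM (148) and 7 AM (182) and highest at 3 PM (418), at 0.39 ± 0.36 between day and night. The other 3 stayed between 395 and 847 on all arrays, and their day-night differences were 0.07 ± 0.22 on 209163_at, -0.11 ± 0.25 on 209164_s_at and 0.07 ± 0.20 on 217200_x_at. By the manufacturer's naming, probe sets ending in _x_at hold probes shared with other transcripts.

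Because each time had 1 animal, neighbouring levels were set against the moderated residual SD around a fit, first around the day and night means. That SD mixes animal, age and array with change between clock times that the fit does not describe. From lowest to highest, TH ran 3 AM, 11 PM, 7 PM, 11 AM, 3 PM and 7 AM, and 3 of the 5 steps exceeded its SD of log2 0.38, the largest being 0.71 between 3 PM and 7 AM. PNMT ran 3 AM, 7 PM, 11 PM, 3 PM, 11 AM and 7 AM, with 2 of 5 steps above its SD of 0.36. For GCH1, whose SD was 0.56, 1 of 5 steps exceeded it, the 0.65 between 3 AM and 7 AM. For DBH 2 of 5 steps did, with 0.88 between 3 AM and 11 PM, and for SLC18A1 2 of 5. Set against the SD around the 24-h cosine instead, 3 of 5 steps of GCH1 exceeded its SD of 0.28, and 2 of 5 of TH exceeded 0.47.

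Counted together, 10 of the 13 probe sets passed the level filter and were tested. In the day against night contrast 4 of the 10 had an unadjusted p under 0.05, all higher by day: TH, PNMT, DBH and CYB561 210816_s_at. Over all 11108 probe sets tested 5.53% passed in either direction and 2.93% were higher by day. In the 24-h cosine 3 of the 10 passed, GCH1, CYB561 210816_s_at and SLC18A1, against 5.44% of all. After adjustment over all probe sets limma called 0 of 11108 in either comparison, 0%, with 604 at an unadjusted p under 0.05 in the cosine and 614 in the contrast, and the lowest adjusted p in the contrast was 0.0942.

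All day arrays lay above all night arrays on 3 of the 13 probe sets, against 5.54% of all 22215. These were the probe sets of TH and PNMT and DDC 205311_at. On 0 of the 13 all day arrays lay below all night arrays, and the share of all probe sets that did so was not counted. Without the level filter 12 of the 13 probe sets were higher by day, where 51% of all 22215 were, and the median difference was log2 0.89 over the 13 and 0.01 over all. In that fit 3 of the 13 passed the unadjusted threshold higher by day, TH, PNMT and DDC 205311_at, against 2.93% of all, and 1 passed in the cosine, GCH1, against 5.14%. The day and night arrays are the same 6 in each of these counts, and that the medulla genes lay higher by day was known from an earlier analysis of these arrays when the genes were chosen. The 13 probe sets share those arrays and are not replicates of one another.

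Most chromaffin markers outside the 8 genes had higher means by day, and 0 passed after adjustment by limma. Of 20 listed, 17 had a single-gene probe set, none was at 0, and their summed intensity ran from 28373 to 42279 by day and from 21382 to 30203 by night. CHGB alone made up 7835 to 18268 of these sums, and its own difference was log2 0.39 ± 0.29 (limma, unadjusted p = 0.214). Of the 15 past the level filter 14 were higher by day, with a median of log2 0.46 over the list and -0.00 over all 7164 genes. Of these genes 49.1% were higher by day. At an unadjusted p under 0.05 by limma 5 of the 15 were higher, against 2.95% of all genes, and 0 were lower, against 2.44%. They were ISL1, a LIM homeodomain factor (1.505 ± 0.32), SYT1, the calcium sensor of vesicle release (0.80 ± 0.19), GATA3, a chromaffin transcription factor (0.93 ± 0.26), STMN2, a microtubule regulator of neurons (0.83 ± 0.28), and RET, a neurotrophic factor receptor (0.55 ± 0.19). The mean log2 departure of the 15 from their own averages was -0.47 at 3 AM, 0.58 at 7 AM, 0.08 at 11 AM, 0.15 at 3 PM, -0.02 at 7 PM and -0.32 at 11 PM.

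With that mean as a covariate, 0 of the 10 tested probe sets passed the unadjusted threshold between day and night by limma, where 2.88% of all probe sets passed higher by day. The log2 difference was then 0.14 ± 0.32 for TH, 0.49 ± 0.42 for PNMT, 0.19 ± 0.49 for DBH and 0.02 ± 0.46 for CYB561 210816_s_at. Subtracting that mean from each array, with no fitted slope, left more: 0.56 for TH, 0.57 for PNMT, 0.39 for DBH and 0.40 for CYB561 210816_s_at. CYB561 207986_x_at went the other way, to 1.12 ± 0.53 with the covariate against 0.39 ± 0.36 without it. The part of chromaffin content in these differences was not tested. DDC 205311_at, a dim probe set below the level filter, was at 1.84 in the fit without that filter, against 1.51 ± 0.54 without the covariate. For SLC18A1 the difference was 0.82 ± 0.48. The 24-h cosine of GCH1 kept its size with the covariate, at log2 1.69 ± 0.34 with a peak at 16.4 h (limma, unadjusted p = 0.00594). That of TH was 0.16 ± 0.32. With age instead, 5 of the 10 passed between day and night, all higher by day, against 3.04% of all probe sets. GCH1 was the added one, at 0.70 ± 0.20 (limma, unadjusted p = 0.00855).

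**Figure D2:**
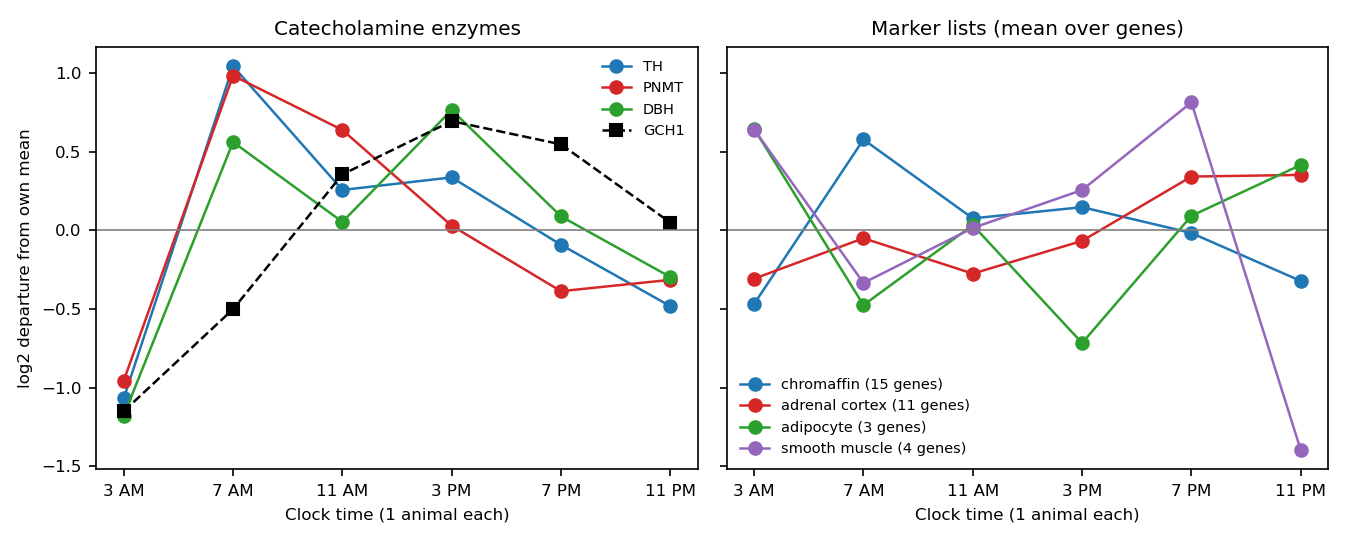
Log2 departure from each probe set's own mean at the 6 clock times, 1 animal each, for TH, PNMT, DBH and GCH1 (left), and the mean departure of 4 marker lists (right). TH, PNMT and the chromaffin markers share a top at 7 AM and a low at 3 AM, while GCH1 is below its mean at 7 AM.

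Among markers of other cells 0 passed after adjustment by limma, and the values given are unadjusted. Of the 11 adrenal cortex markers past the filter 2 had a higher mean by day, with a median difference of log2 -0.19, and 1 was lower at an unadjusted p under 0.05, the steroid sulphotransferase gene SULT2A1 (-0.73 ± 0.24). The list had a summed intensity of 72266 to 78012 by day and 61361 to 97425 by night. Adipocyte markers had a median of -0.93 over 3 genes, 0 of them higher by day and 2 lower at an unadjusted p under 0.05 by limma, against 2.44% of all genes, with sums of 1621 to 2695 by day and 2632 to 4262 by night. Past the same threshold, the T cell gene CD2 (0.84 ± 0.25, 1 of 4 lymphocyte markers) was higher by day, against 2.95% of all genes. So was the macrophage gene CD163 (0.73 ± 0.27, 1 of 3). By sign, 2 of the 4 lymphocyte markers were lower by day, as were 2 of the 3 macrophage markers. Below the level filter, the T cell gene CD3E was at -1.72 and the macrophage gene CD14 at 0.20. Past the unadjusted threshold, the glial gene SOX10 (-0.84 ± 0.28, 1 of 2) was lower, against 2.44% of all genes. The other tested glial gene, ERBB3, was at -0.01 ± 0.26. Glial genes below the level filter were S100B at 1.65, CDH19 at 0.42 and GFRA3 at -0.10. The collagen gene COL3A1 (-0.78 ± 0.34, 1 of 4 fibroblast and capsule markers) was also lower past the threshold. By sign, 3 of those 4 markers were lower by day and 1 higher. Smooth muscle markers lay at 0.64 at 3 AM, 0.81 at 7 PM and -1.40 at 11 PM from their gene means. All single genes given here were named after their values were seen. No listed marker was at 0 on any array. The part of these cells in the values of the 8 genes was not tested.

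**Figure D3:**
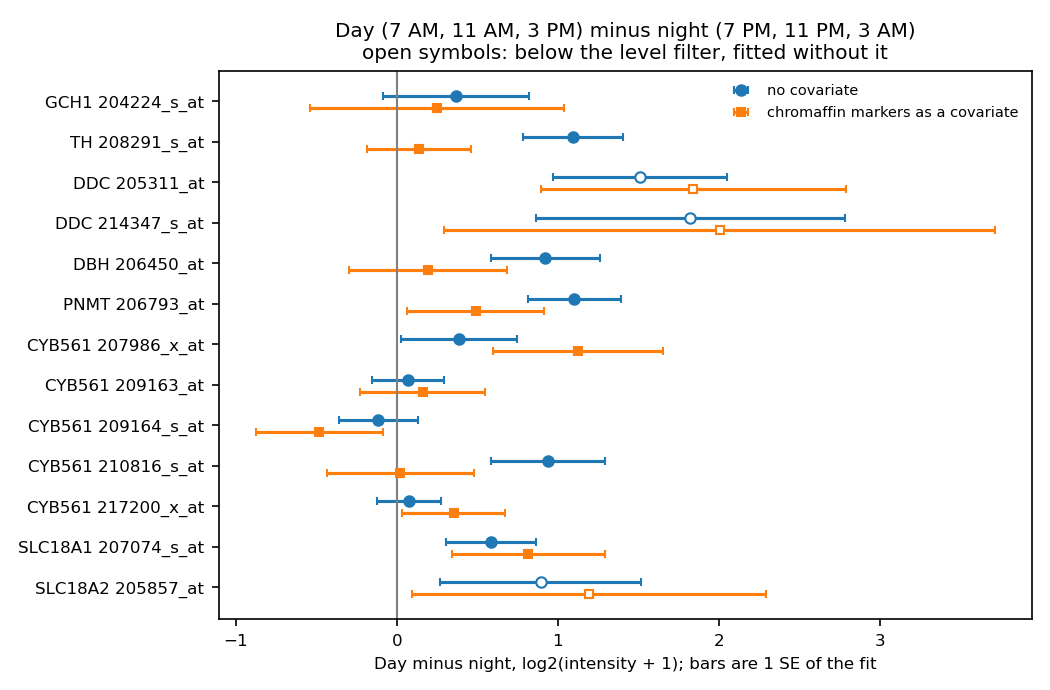
Difference of day (7 AM, 11 AM, 3 PM) minus night (7 PM, 11 PM, 3 AM) in log2(intensity + 1) for the 13 probe sets, with bars of 1 SE of the fit, without a covariate (circles) and with the chromaffin markers as a covariate (squares). TH is at 1.09 without and at 0.14 with the covariate, and open symbols mark the 3 probe sets below the level filter.

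The other genes that serve the pathway were taken 1 probe set per gene, the highest mean among those naming that gene alone, with 7164 genes tested. Of the 8 listed for synthesis and recycling of tetrahydrobiopterin, 6 were tested and 0 passed the unadjusted threshold by limma in either direction, with a median of log2 -0.20. Of all genes 2.95% passed higher by day and 2.44% lower. The smallest p belonged to GCHFR, the feedback regulator that binds GCH1 (-0.34 ± 0.23), SPR, sepiapterin reductase (-0.30 ± 0.21), and CBR1, a carbonyl reductase (-0.52 ± 0.46). GCHFR had intensities of 278 at 3 AM, 234.5 at 7 AM, 266 at 11 AM, 278 at 3 PM, 286 at 7 PM and 439.8 at 11 PM, and did not follow the course of GCH1. Of these 6 genes 0 passed in the 24-h cosine, against 5.56% of all genes.

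Of the 10 genes listed for cofactor supply, 5 were tested, 0 passed between day and night and the median was 0.10. MAT2A, which makes the methyl donor of PNMT, was at 0.24 ± 0.19, AHCY, which clears the product of methylation, at 0.13 ± 0.18, and ATP7A, a copper pump, at 0.10 ± 0.25. In the cosine 1 of the 5 passed the unadjusted threshold, where 5.56% of all genes did: ATOX1, a copper chaperone named after its value was seen, with a peak at 17.4 h and 2.29 times its trough (limma, unadjusted p = 0.0197). The proton pump that drives amine uptake had 14 of 16 listed genes tested and a median of 0.06. ATP6V1B2, the brain-type B subunit, was higher by day at 0.62 ± 0.22 (limma, unadjusted p = 0.0223), ATP6V1C1 was at 0.38 ± 0.24 and ATP6V1A at -0.33 ± 0.21. That is 1 of 14, against 2.95% of all genes higher by day. In the cosine 1 of 14 passed as well, ATP6V1G1, named after its value was seen, with a peak at 4.33 h (limma, unadjusted p = 0.0355).

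Uptake and breakdown of catecholamines had 3 tested genes of 13 listed, 0 of them past the threshold. ALDH2, an aldehyde dehydrogenase, was at -0.22 ± 0.23, MAOA, a monoamine oxidase, at -0.09 ± 0.26 and the noradrenaline transporter SLC6A2 at -0.00 ± 0.36. Receptors that carry neural and hormonal input had 8 of 12 tested and 0 past the threshold, against 2.95% of all genes higher by day and 2.44% lower. By sign 5 were higher by day and 3 lower, with a median of log2 0.25. The smallest p belonged to NR3C1, the glucocorticoid receptor (0.32 ± 0.19), the angiotensin receptor gene AGTR1 (0.51 ± 0.30) and the adrenergic receptor gene ADRA2B (0.45 ± 0.32). The lower ones were CHRNB2 (-0.39 ± 0.28), VIPR1 (-0.27 ± 0.28) and CHRNA5 (-0.13 ± 0.27). Listed genes with no single-gene probe set in the annotation were not analysed here.

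Among 17 transcription factors listed for the TH, DBH or PNMT promoters, 13 were tested, 3 were higher by day at an unadjusted p under 0.05 by limma and 0 lower, against 2.95% and 2.44% of all genes, with a median of 0.19. NR4A2 had intensities of 337 at 3 AM, 902 at 7 AM, 699 at 11 AM, 572 at 3 PM, 255 at 7 PM and 419 at 11 PM, a difference of 1.11 ± 0.25 (limma, unadjusted p = 0.00195, adjusted p = 0.759). All its day arrays lay above its night arrays, as was so for 5.54% of all probe sets. GATA3, counted above among chromaffin markers, and NR4A1, at 1.54 ± 0.60 with overlapping groups, passed as well. The probe sets of NR4A2 and NR4A1 end in _x_at, which by the manufacturer's naming means probes shared with other transcripts. In the cosine 3 of the 13 passed the unadjusted threshold, against 5.56% of all genes: NR4A2 with a peak at 9.38 h, GATA3 at 9.94 h and JUN at 2.69 h. JUN, named after its value was seen, was lower by day, at -0.36 ± 0.25.

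Over the 6 arrays, the 5 genes whose log2 values followed TH most closely out of 7158 were RARRES2, the secreted protein chemerin (Pearson r 0.992), KIF5C, a neuronal kinesin (0.989), CA11, a carbonic anhydrase-related protein (0.983), ENO2, neuron-specific enolase (0.983), and CCDC90B (0.981). For PNMT they were GNB3, a G protein subunit (0.993), FAU, a ribosomal fusion protein (0.987), RPS12, a ribosomal protein (0.975), NACA, a ribosome-associated protein (0.971), and MAP4K5, a kinase (0.971). The sizes differed: TH spanned 4.33-fold, whereas CCDC90B ran from 461 to 559.7. Likewise FAU ran from 3053 at 3 AM to 4821 at 7 AM, against 936 and 3597 for PNMT. These are the highest of many correlations over 6 arrays that all share the same 6 animals. Within the 8 genes TH had r of 0.929 with PNMT, 0.895 with DBH, 0.373 with GCH1 and 0.383 with SLC18A1.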

How the data were processed

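Adrenal RNA of 6 macaques was hybridised to 6 Affymetrix human arrays. Per the labels' protocols, RNA was copied from an oligo-dT primer and labelled with biotin by in vitro transcription. The authors deposited 1 linear intensity per probe set and array. The 2% trimmed means lay between 325.04 and 325.09, so the arrays had been brought to a common level before deposit, by software not given in the sources used here. The table holds 22283 probe sets, 68 of them controls, and values from 0.1 to 40394. Of the rest, 19065 name 1 gene in the platform annotation, 1043 several and 2107 none.

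Values were converted to log2(intensity + 1). The level filter kept probe sets whose mean log2 value reached the median over all that are not controls, 11108 of 22215. Fits used limma 3.58.1 in R 4.3.3, on the whole table with Benjamini-Hochberg adjustment and a threshold of 0.05: a 24-h cosine (moderated F test, 3 residual degrees of freedom) and day minus night (3 arrays each, 4 residual degrees of freedom). Every probe set of the 8 genes was described, with the 3 genes of smallest p in each pathway list and the 5 most like TH and PNMT. Members, lists, contrast and tests were chosen with earlier results of these data known. Both fits were first tested on simulated data of known change, with noise drawn at each probe set's residual SD around the cosine. At an adjusted p under 0.05 by limma the cosine fit found 0% of 2-fold and 26% of 4-fold changes. The day against night fit found 34% and 84%. In each simulation 50 changes each of 2-, 4-, 8- and 16-fold were planted together, and the larger ones ease the adjusted cut for the smaller. The shares are therefore not the power of either fit in the deposited data, where 0 of 11108 passed after adjustment. With 6 arrays in all, precision is limited by their number. The p-values rest on the residual around each fit, in which animal, age, array and clock time cannot be separated.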

Additional observations from a re-analysis of the deposited data

How the results depend on the processing

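Of the 10 probe sets tested, those past the unadjusted threshold in the 24-h cosine numbered 3. The count was 1 of 13 with no filter on level (GCH1) and 1 of 6 with a filter at the upper quartile, where PNMT passed and GCH1, SLC18A1 and CYB561 210816_s_at were not tested. It was 1 of 10 with chromaffin markers as a covariate and 1 to 5 when arrays were left out singly, 1 for 3 PM and 5 for 7 AM. The 4 past it between day and night became 0 with chromaffin markers as a covariate, 2 without the 3 AM and 3 PM arrays, and 2 to 5 when arrays were left out singly, 2 for 3 AM or 3 PM. In the exact order test 1 probe set became 2 under quantile normalization, the added one being SLC18A1 (exact p = 0.0333). Over all probe sets, the 604 in the cosine became 1141 with no filter, 347 with the upper quartile and 398 with 1 probe set per gene, and the 614 between day and night became 1117, 376 and 386 in the same settings, where other numbers were tested. Without single arrays they ran from 521 to 799 and from 544 to 655. After adjustment 0 became 1 in the cosine at the upper quartile and stayed 0 between day and night in every alternative run. With age as a covariate, which cannot be told apart from the cosine here, the peak of GCH1 moved by over 6 h (log2 1.31). Its day-night difference was -0.37 without 3 AM and 3 PM and -0.12 to 0.73 without single arrays. Among uncalled CYB561 probe sets, the difference on 209163_at was -0.095 without 3 AM and 3 PM and -0.12 to 0.18 when arrays were left out singly, with -0.0053 for 11 PM. On 209164_s_at it ran from -0.26 to 0.12 and on 217200_x_at from -0.060 to 0.17, and their cosines ran from 0.21 to 0.66 and from 0.081 to 0.42, with peaks moved by over 6 h at 0.33 and 0.081 without 11 AM. Over all single probe sets and alternatives, 311 values kept direction and side of the threshold, 36 lost it, 25 gained it and 10 changed direction. Apart from the numbers tested and the samples removed, the cause was not tested. No paired analysis was possible because no 2 arrays share a clock time or an animal. No detection call came with the intensities, so for the dim probe sets of DDC and SLC18A2 signal and background could not be separated.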
